A study of Homo sapiens with 8 samples.

Results

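The genes described here are 47 genes of fatty acid synthesis, storage and oxidation, chosen by matching a list of gene symbols to the symbol column of a count table of 30434 genes. They were followed in SKBR3 cells, an established line from a human breast cancer in which ERBB2, the gene of the HER2 receptor, is amplified. RNA-seq with an mRNA library protocol was made from 4 control libraries, whose genotype is given as wild type, and from 4 libraries of a stable FOXA1 knockdown line. That line was made with lentiviruses carrying short hairpin RNAs against FOXA1, a forkhead transcription factor of luminal breast cells, and the study asked how FOXA1 bears on HER2-related pathways. Both groups grew in the same DMEM medium with fetal bovine serum. The labels do not say whether the controls carried a vector, whether the replicates were separate cultures, or what a replicate number marks. The p-values therefore measure the spread between these libraries, which may be technical, and the knockdown is a single line. In bulk RNA, fewer cells of a type and less RNA per cell cannot be told apart.

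Cells build palmitate from acetyl-CoA that ACLY releases from citrate, through acetyl-CoA carboxylase and fatty acid synthase, with NADPH from enzymes such as malic enzyme. Desaturases and elongases turn palmitate and dietary fatty acids into the longer and unsaturated chains of membranes, acyl-CoA synthetases activate fatty acids for every later use, and the glycerolipid pathway stores them as triglyceride in lipid droplets. Lipases release them again, and carnitine palmitoyltransferases carry them into mitochondria for beta-oxidation, while peroxisomes shorten chains of other kinds. SREBF1 encodes the transcription factor that drives much of the synthetic arm, and high fatty acid synthase is a known trait of HER2-amplified breast cancer cells.

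The libraries held 21838121 to 23786684 counts in control and 19087878 to 23503753 in knockdown, and 3 counts corresponded to 0.123 to 0.153 CPM, the unit of counts scaled to a common library total after TMM. FOXA1 fell from 192 ± 1.65 to 3.96 ± 0.34 CPM (SD, n = 4, as for all means below), which left 2.06% of the control level (log2 fold change -5.60, SE 0.063, edgeR adjusted p = 3.19e-30), and ERBB2 fell to 18.3%. All 8 luminal epithelial markers of SKBR3 were present, with a summed level of 16800 to 18700 CPM in control and 11100 to 12000 CPM in knockdown. Of these, ERBB2, GRB7, FOXA1 and KRT19 fell and KRT8, KRT18, EPCAM and TFAP2A rose. The adipocyte list had 6 of 7 markers in the table and summed to 3.66 to 4.22 CPM in control and 1.32 to 1.99 CPM in knockdown, with CIDEC and LPL at 0 in every control library. The fibroblast list (7 of 8 in the table) summed to 5.31 to 7.12 CPM in control and 10.8 to 12 CPM in knockdown, with COL3A1 at 0 to 1 counts in control and 90 to 104 in knockdown, PDGFRB at 7 to 12 and 43 to 81 counts, and COL1A1 lower. The leukocyte list summed to 70.6 to 76.9 and 55.9 to 63.5 CPM and the endothelial list to 20.7 to 22.1 and 19.8 to 22.4 CPM. The part of these markers in the results below was not tested. Control replicate 3 stood somewhat apart from the other controls: chi-square per degree of freedom was 5.66 to 7.42 in its pairs and 2.3 to 2.55 in the other control pairs. Of all 16430 genes tested, 77.1% differed at an edgeR adjusted p under 0.05, 37.7% lower and 39.4% higher in knockdown, with 13.4% at least 2-fold lower and 14.9% at least 2-fold higher. The CPM of the groups did not overlap for 72% of them, so a difference in a single gene is common in this comparison.

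Of the 47 fatty acid genes, 45 had enough counts to be tested and 43 differed between the groups, 27 lower (60%) and 16 higher (35.6%) in the knockdown. CD36 and FABP7 were too low to test, and AGPAT2 and ACADVL did not pass the test. By size, 14 genes were at least 2-fold lower and 11 at least 2-fold higher, 55.6% of those tested against 28.3% of all genes, and the median absolute log2 fold change was 1.23 against 0.51 over all genes. The median signed log2 fold change was -0.25 against 0.02. In the wider pathway list, described last, 30.1% of the tested genes moved by 2-fold or more, and the median absolute log2 fold change was 0.588. That list was thus near all genes in size of change. Among the 45 are 9 genes (THRSP, SCD5, FADS1, FADS2, ELOVL2, ACSL4, FABP3, LIPE and ACOX2) that passed the filter through one group alone, which favours a difference. All 9 moved by 2-fold or more, so they count toward the 55.6% and the median of 1.23. Of the 36 that passed it in both groups, 24 were lower and 10 higher. All 43 (95.6% of those tested, against 72% of all genes) had CPM values that did not overlap between groups. For any such gene an exact two-sided permutation test gives p = 0.0286, the smallest that the 70 divisions of 8 libraries allow. That p therefore adds nothing to the lack of overlap. Without control replicate 3 the counts were 27 lower and 17 higher, of 46 tested.

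**Figure D1:**
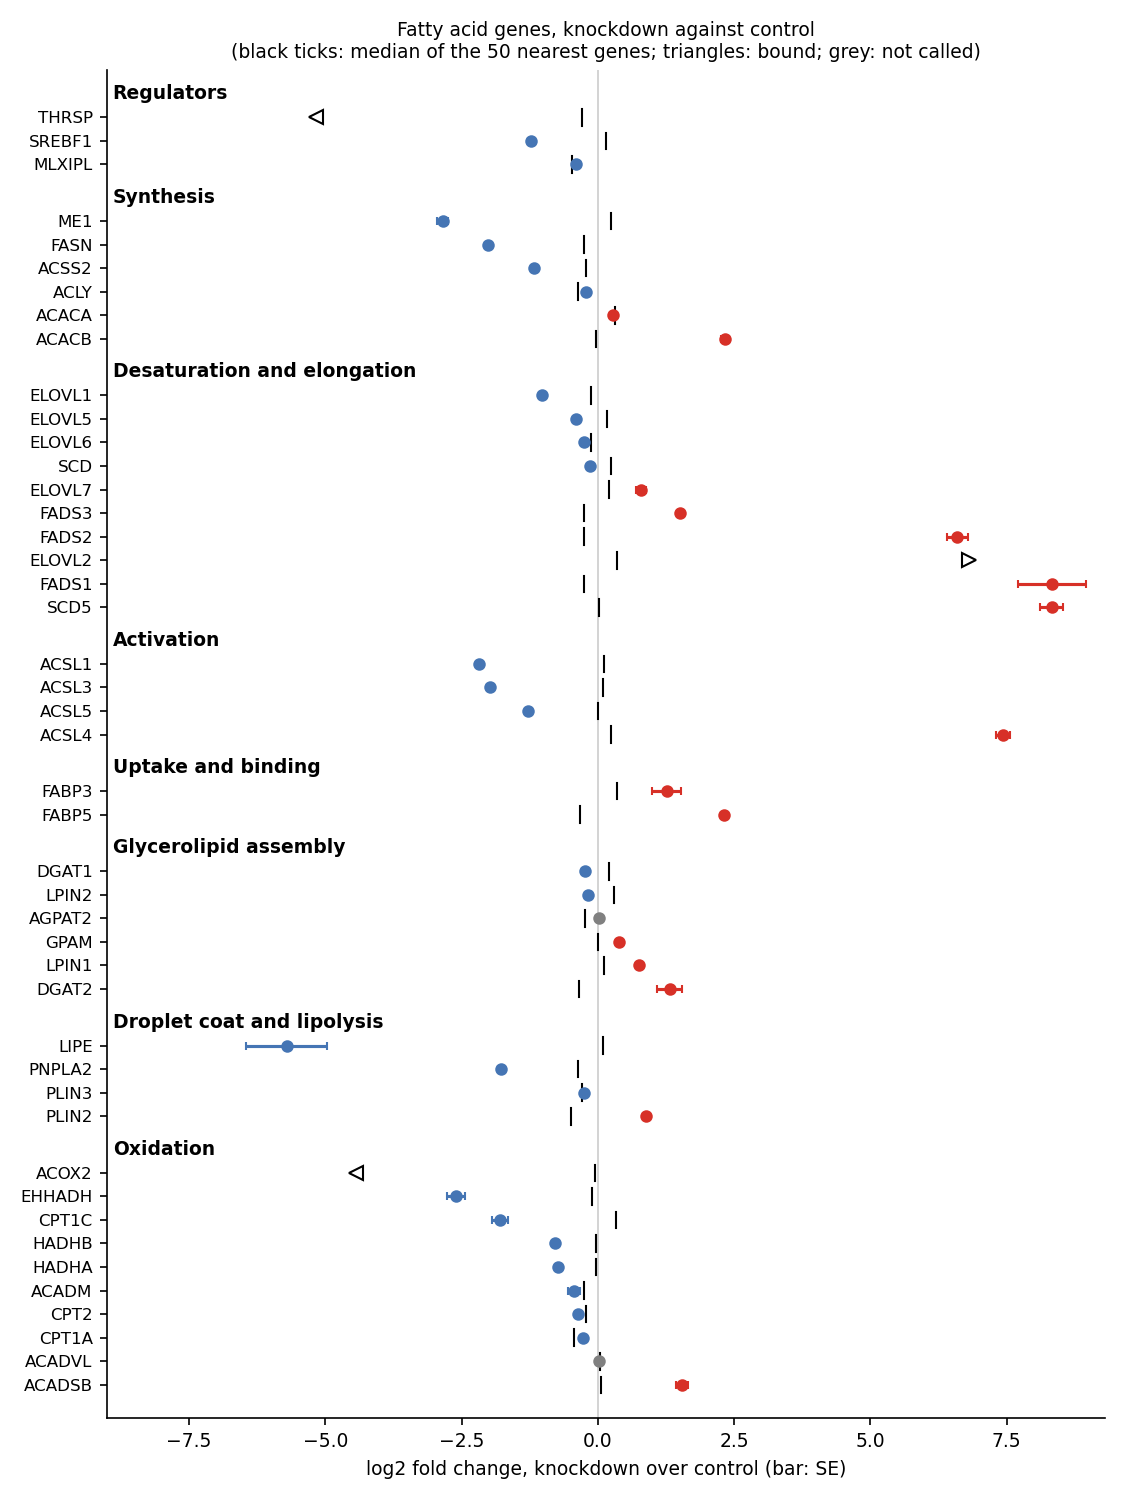
Log2 fold change of knockdown over control for the 45 tested fatty acid genes, grouped by role, with bars for the SE and open triangles for the 3 genes given as bounds. Black ticks mark the same measure for the surroundings of each gene, as the median of its 50 nearest tested genes, and ran from -0.48 to 0.35. SCD5, FADS1 and ACSL4 lie at 8.33, 8.32 and 7.435, and ELOVL2 is a lower bound.

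The 3 regulators of lipogenic transcription were all lower in the knockdown, as were 37.7% of all genes. SREBF1 (chr17:17810399-17837002, minus strand, GENCODE 29 on GRCh38, as for every gene position here) encodes the sterol regulatory element binding protein of fatty acid synthesis and read 408, 377, 442 and 396 CPM in control and 170, 173, 165 and 184 CPM in knockdown replicates 1 to 4. Every knockdown library lay below every control library, and the mean fell to 42.6% (log2 fold change -1.23, SE 0.0588, edgeR adjusted p = 2.57e-15). SREBF1 shares 556 exonic bases with RAI1 on the opposite strand. THRSP, whose product is a small nuclear protein tied to lipogenic gene expression, had 128, 110, 136 and 107 counts in control and 0, 0, 0 and 0 counts in knockdown replicates 1 to 4. It was thus at 0 in the whole knockdown group, at least 35.9-fold lower when 3 counts per library are taken as the floor (edgeR adjusted p = 1.15e-15). A stretch of 48 exonic bases of THRSP overlaps NDUFC2 on the opposite strand. MLXIPL, the carbohydrate response factor ChREBP, was low in both groups and went from 5.48 ± 0.31 to 4.13 ± 0.345 CPM (log2 fold change -0.41, SE 0.0736, edgeR adjusted p = 0.00145). The 50 genes nearest to MLXIPL had a median of -0.47, and with that regional shift removed its value was 0.06 (adjusted p = 0.632, range over the alternatives 0.0013 to 1). For this and the later ranges of adjusted p, the upper end came from the test against a 2-fold change. A gene that moved by less than 2-fold is bound to miss that test. The ranges also pool alternatives in which the direction turned.

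The synthetic enzymes split, with 4 lower (66.7%, against 37.7% of all genes) and 2 higher (33.3%, against 39.4%). FASN (chr17:82078333-82098332, minus strand), fatty acid synthase itself, read 6450, 5730, 6590 and 5920 CPM in control and 1510, 1580, 1450 and 1570 CPM in knockdown replicates 1 to 4. The mean fell from 6170 ± 410 to 1530 ± 58.4 CPM, to 24.8% of control (log2 fold change -2.01, SE 0.0555, edgeR adjusted p = 3.71e-19). Per kilobase of exon, FASN ranked 38 of 13278 protein-coding genes in control and 177 in knockdown, and it held 0.556 to 0.635% of all counts of a control library against 0.15 to 0.164% of a knockdown library. It thus stayed among the most abundant transcripts of both groups despite the fall.

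ME1, the cytosolic malic enzyme that supplies NADPH, read 82, 82.8, 76.7 and 81.3 CPM in control and 12.1, 12.5, 9.52 and 10.5 CPM in knockdown replicates 1 to 4. It had the largest fall of the 6 synthetic enzymes, to 13.8% (log2 fold change -2.85, SE 0.093, edgeR adjusted p = 5.73e-23). ACSS2, which makes acetyl-CoA from acetate, read 124, 125, 133 and 125 CPM in control and 55.4, 56.3, 56 and 56.9 CPM in knockdown replicates 1 to 4. Control replicate 3 was the highest of the controls and all knockdown libraries were far below, with 44.3% left (log2 fold change -1.17, SE 0.0234, edgeR adjusted p = 2.12e-19). ACLY, ATP citrate lyase, read 802, 808, 826 and 802 CPM in control and 690, 704, 677 and 718 CPM in knockdown replicates 1 to 4. The groups did not overlap, but the step was small (log2 fold change -0.215, SE 0.0212, edgeR adjusted p = 8.92e-07). ACLY lies on chromosome 17 among genes with a median of -0.36, and its log2 fold change was 0.14 with that shift removed (adjusted p = 0.00024, range 4.92e-12 to 1).

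The 2 acetyl-CoA carboxylases, which make malonyl-CoA, went the other way. ACACA, the cytosolic form that feeds fatty acid synthase, read 94, 98.7, 96 and 91.7 CPM in control and 108, 119, 110 and 126 CPM in knockdown replicates 1 to 4. The lowest knockdown library was above the highest control (log2 fold change 0.285, SE 0.0555, edgeR adjusted p = 3.03e-06), yet the 50 nearest genes had a median of 0.31 and the value was -0.03 once that was removed (adjusted p = 0.608, range 2.04e-11 to 1). ACACB, the mitochondrial-surface form whose malonyl-CoA restrains CPT1, read 7.24, 8.22, 7.17 and 6.98 CPM in control and 36.6, 38.4, 34.7 and 39.3 CPM in knockdown replicates 1 to 4. It was 5.04-fold higher in knockdown (log2 fold change 2.33, SE 0.0654, edgeR adjusted p = 9.62e-21), beside a median of -0.02 for its nearest genes. Its share of the summed carboxylase level per kilobase went from 6.52 ± 0.294% to 22.4 ± 0.641%.

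**Figure D2:**
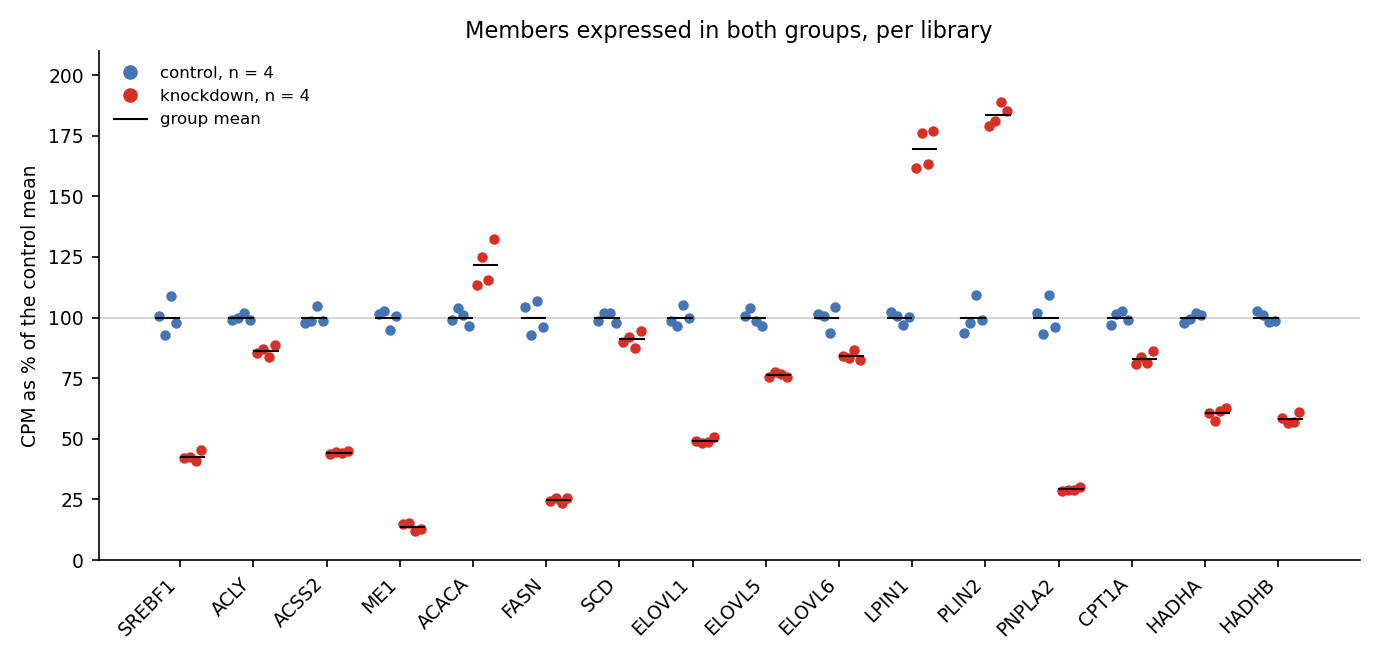
CPM in each library as a percentage of the control mean for 16 fatty acid genes expressed in both groups, with 4 points per group and a line at each group mean. ME1, FASN and PNPLA2 lie at 13.8%, 24.8% and 29.2% of control in the knockdown, and LPIN1 and PLIN2 lie above the control points.

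Desaturation and elongation genes went both ways, with 6 higher (60%) and 4 lower (40%) in the knockdown, against 39.4% and 37.7% of all genes. Within this role, 4 genes next to absent in control were present in knockdown: SCD5, FADS1, FADS2 and ELOVL2. With ACSL4, described below with the acyl-CoA synthetases, 5 of the 45 tested genes (11.1%) were under 0.5 CPM in control and at 3 CPM or more in knockdown, against 1.94% of all genes tested. The reverse held for THRSP, LIPE and ACOX2, 3 of 45 (6.67%) against 1.15% of all genes. These thresholds were chosen after the values were seen. Each of these genes passed the filter only through the group where it was high. The shares therefore describe the list and test nothing.

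SCD5 (chr4:82629539-82798857, minus strand), a stearoyl-CoA desaturase outside the SCD locus, had 8, 7, 4 and 5 counts in control and 2069, 2198, 1713 and 1979 counts in knockdown replicates 1 to 4. The control libraries did not rise above 8 counts, and the mean went from 0.272 ± 0.0835 to 89.2 ± 1.98 CPM, 327-fold higher (log2 fold change 8.33, SE 0.207, edgeR adjusted p = 9.39e-29). FADS1 (chr11:61799625-61829318, minus strand), the delta-5 desaturase of polyunsaturated fatty acids, had 1, 8, 7 and 2 counts in control and 1526, 1684, 1308 and 1480 counts in knockdown replicates 1 to 4. It was 325-fold higher in mean CPM (log2 fold change 8.32, SE 0.623, edgeR adjusted p = 3.62e-25), with a control level that rests on 1 to 8 counts. FADS2 (chr11:61792980-61867354, plus strand), the delta-6 desaturase, had 3, 4, 5 and 6 counts in control and 466, 540, 355 and 448 counts in knockdown replicates 1 to 4. The mean was 99.1-fold higher (log2 fold change 6.59, SE 0.193, edgeR adjusted p = 1.18e-22). FADS1 and FADS2 are transcribed in opposite directions and share 490 exonic bases, so without strand in the counting their reads cannot be fully told apart. FADS2 also shares 49 exonic bases with FEN1 on the same strand.

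FADS3, the third gene of that cluster on chromosome 11, was expressed in both groups and read 7.88, 7.4, 8.55 and 8.1 CPM in control and 23.2, 22.9, 22.6 and 22.7 CPM in knockdown replicates 1 to 4. It was 2.86-fold higher (log2 fold change 1.52, SE 0.044, edgeR adjusted p = 1.00e-16), a far smaller step than those of FADS1 and FADS2. Flanking genes did not rise as far as FADS1 and FADS2. MYRF had a log2 fold change of -0.33, TMEM258 of 0.21, FEN1 of -0.22 and FTH1 of 0.00, while RAB3IL1, next to FADS3, was at 1.71 and BEST1 at 0.79. The median of the 50 nearest genes was -0.25.

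ELOVL2 (chr6:10980759-11044314, minus strand), the elongase of very long polyunsaturated chains, had 1, 2, 2 and 2 counts in control and 346, 422, 317 and 345 counts in knockdown replicates 1 to 4. With at most 2 counts in each control library, it was at least 112-fold higher (edgeR adjusted p = 1.89e-22). ELOVL1, the elongase of saturated very long chains, moved the other way and read 208, 204, 222 and 211 CPM in control and 104, 102, 103 and 107 CPM in knockdown replicates 1 to 4. Its mean fell to 49.1% (log2 fold change -1.03, SE 0.0299, edgeR adjusted p = 1.03e-18). ELOVL5, an elongase of polyunsaturated chains, fell by 0.39 on the log2 scale, and ELOVL6, which extends palmitate to stearate, fell by 0.25 (edgeR adjusted p = 2.66e-10 and 4.02e-06). ELOVL7 rose from 6.9 ± 0.833 to 11.9 ± 0.432 CPM (log2 fold change 0.78, SE 0.0924, edgeR adjusted p = 1.14e-08). SCD, the main stearoyl-CoA desaturase, read 1170, 1210, 1210 and 1160 CPM in control and 1070, 1090, 1040 and 1120 CPM in knockdown replicates 1 to 4. The lowest control library was above the highest knockdown library by a narrow margin (log2 fold change -0.13, SE 0.0281, edgeR adjusted p = 5.65e-04), and with scaling by library size alone the log2 fold change was -0.05 (adjusted p = 0.129, range 6.05e-11 to 1).

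For the genes that were next to absent in one group, the 250 bases before the RefSeq start site are given to show how different the start regions are (RefSeq, GRCh38.p14, 5′ to 3′ on the gene's strand, with CG dinucleotides in capitals). FADS1 is chr11:61817004-61817253 on the minus strand, 29 CpG. FADS2, the upstream of 2 start sites, is chr11:61815953-61816202 on the plus strand, 16 CpG, against 10 for the other start. ELOVL2 is chr6:11044306-11044555 on the minus strand, 45 CpG. SCD5 is chr4:82798797-82799046 on the minus strand, 31 CpG. ACSL4 is chrX:109733258-109733507 on the minus strand, 42 CpG. THRSP is chr11:78063611-78063860 on the plus strand, 3 CpG. LIPE, the upstream of 2 start sites, is chr19:42427389-42427638 on the minus strand, 3 CpG, against 18 for the other start. Which start these cells used was not tested.
FADS1: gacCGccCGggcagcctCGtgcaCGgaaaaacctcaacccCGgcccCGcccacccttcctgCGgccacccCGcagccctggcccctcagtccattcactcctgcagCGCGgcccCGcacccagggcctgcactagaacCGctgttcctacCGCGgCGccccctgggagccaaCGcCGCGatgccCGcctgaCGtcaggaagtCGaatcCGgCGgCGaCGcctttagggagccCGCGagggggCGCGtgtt
FADS2: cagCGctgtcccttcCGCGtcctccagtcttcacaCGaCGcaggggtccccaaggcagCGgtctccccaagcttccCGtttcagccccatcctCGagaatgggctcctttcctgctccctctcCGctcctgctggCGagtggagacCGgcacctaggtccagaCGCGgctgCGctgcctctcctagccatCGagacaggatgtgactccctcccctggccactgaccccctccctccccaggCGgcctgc
ELOVL2: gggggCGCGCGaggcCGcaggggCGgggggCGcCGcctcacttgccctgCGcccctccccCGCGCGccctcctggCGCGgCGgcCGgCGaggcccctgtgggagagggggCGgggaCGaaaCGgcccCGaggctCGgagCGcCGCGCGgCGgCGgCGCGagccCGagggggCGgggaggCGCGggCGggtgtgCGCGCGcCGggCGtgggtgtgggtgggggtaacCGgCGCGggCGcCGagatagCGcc
SCD5: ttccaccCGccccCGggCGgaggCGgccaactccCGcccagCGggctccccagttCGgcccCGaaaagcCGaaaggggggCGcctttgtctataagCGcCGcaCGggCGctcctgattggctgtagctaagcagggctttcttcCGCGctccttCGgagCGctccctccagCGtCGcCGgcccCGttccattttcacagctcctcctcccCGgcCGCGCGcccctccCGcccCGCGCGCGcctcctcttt
ACSL4: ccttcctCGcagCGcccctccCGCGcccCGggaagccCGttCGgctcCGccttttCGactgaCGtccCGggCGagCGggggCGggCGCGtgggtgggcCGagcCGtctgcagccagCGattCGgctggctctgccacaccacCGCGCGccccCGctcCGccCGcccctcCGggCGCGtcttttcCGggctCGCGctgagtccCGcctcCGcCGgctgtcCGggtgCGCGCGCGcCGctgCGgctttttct
THRSP: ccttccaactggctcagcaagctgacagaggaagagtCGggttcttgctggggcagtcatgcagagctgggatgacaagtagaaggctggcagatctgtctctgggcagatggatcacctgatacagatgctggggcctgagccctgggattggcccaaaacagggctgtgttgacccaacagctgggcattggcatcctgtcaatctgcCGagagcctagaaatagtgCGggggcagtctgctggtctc
LIPE: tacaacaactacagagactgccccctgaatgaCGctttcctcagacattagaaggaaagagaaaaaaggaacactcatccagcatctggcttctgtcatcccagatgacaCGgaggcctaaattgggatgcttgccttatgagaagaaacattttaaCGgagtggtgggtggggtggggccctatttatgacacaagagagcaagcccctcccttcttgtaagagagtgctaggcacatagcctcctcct

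A RefSeq promoter window of 300 bases, from 250 before the start to 50 after it, was found for 41 of the 47 genes, 64 windows in all. ACOX2, DGAT1, DGAT2, EHHADH, FABP5 and FASN were not among them. The windows of ELOVL2 and ACSL4 held 52 and 51 CpG, SCD5 36, FADS1 32 and the FADS2 windows 18 and 13, while THRSP held 4 and the LIPE windows 3 and 24. The median over all 35116 windows was 14, with quartiles of 4 and 28. Genes expressed in both groups had many CpG (ACLY 30 and 31, ME1 30, SREBF1 28) or few (PNPLA2 5, ACSL5 4 and 5). Motifs were searched on both strands. A sterol regulatory element spelled TCACNCCAC was in 2 of the 64 windows (PNPLA2 and ACSL1), 3.12% against 1.13% of all windows, and the E-box CACGTG in 3 (4.69% against 7.26%). The forkhead spelling TGTTTAC was in 1 window, that of ELOVL6 (1.56% against 3.42%), and TGTTTGC in 5 (7.81% against 3.89%), those of LPIN1, FABP7, CD36, PNPLA2 and ACACB. CCAAT was in 22 (34.4% against 34.6%). A match is a run of letters in this window and says nothing of binding.

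**Figure D3:**
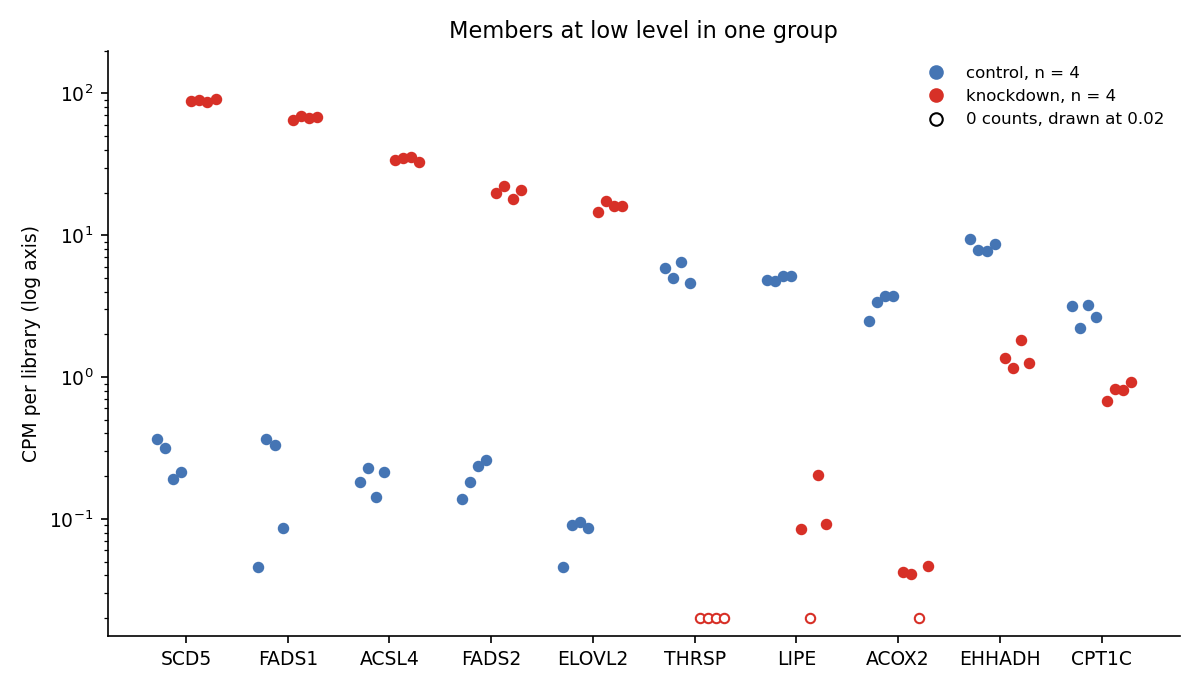
CPM of 10 fatty acid genes in each library on a log axis, with 4 points per group and libraries with 0 counts drawn as open points at 0.02. SCD5, FADS1, ACSL4, FADS2 and ELOVL2 lie below 0.5 CPM in all 4 control libraries, and THRSP, LIPE and ACOX2 lie below it in all 4 knockdown libraries.

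Of the 4 long-chain acyl-CoA synthetases, 3 were lower (75%) and 1 was higher (25%) in the knockdown, against 37.7% and 39.4% of all genes. ACSL1 read 181, 183, 184 and 180 CPM in control and 39.9, 39.2, 39.5 and 41.9 CPM in knockdown replicates 1 to 4. It fell to 22% (log2 fold change -2.18, SE 0.0227, edgeR adjusted p = 4.12e-25). ACSL3, the form of the endoplasmic reticulum and lipid droplet, read 208, 205, 184 and 206 CPM in control and 53.2, 50.5, 51.9 and 48.3 CPM in knockdown replicates 1 to 4. Control replicate 3 was the lowest control and still more than 3 times the highest knockdown library (log2 fold change -1.975, SE 0.0517, edgeR adjusted p = 7.30e-23). ACSL5, the form found on mitochondria, read 44.1, 43.2, 43.9 and 42.2 CPM in control and 17.1, 18, 18.2 and 18 CPM in knockdown replicates 1 to 4. The groups were well apart (log2 fold change -1.28, SE 0.0241, edgeR adjusted p = 7.14e-18), and 144 exonic bases of ACSL5 overlap ZDHHC6 on the other strand. ACSL4 (chrX:109624244-109733403, minus strand), which prefers arachidonate and related polyunsaturated chains, had 4, 5, 3 and 5 counts in control and 794, 862, 695 and 713 counts in knockdown replicates 1 to 4. It was 179-fold higher (log2 fold change 7.435, SE 0.134, edgeR adjusted p = 1.20e-25).

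Per kilobase of exon, the summed ACSL level fell from 66.9 ± 1.35 to 23 ± 0.225 CPM per kb, and the ACSL4 share of it went from 0.0447 ± 0.00828% to 23.3 ± 0.645%. ACSL1 and ACSL3 together made up most of the family in both groups. The summed FADS level rose from 1.31 ± 0.0797 to 12 ± 0.3 CPM per kb, with FADS3 at 97.1 ± 1.33% of it in control and FADS1 at 54.6 ± 0.781% in knockdown. The 2 stearoyl-CoA desaturases summed to 221 ± 5.33 and 222 ± 6.56 CPM per kb, values that overlap, although SCD5 went from 0.0288 ± 0.00899% to 9.36 ± 0.102% of the sum. The 5 elongases summed to 140 ± 1.78 and 90.1 ± 0.531 CPM per kb, and ELOVL1 was the most abundant in both groups.

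**Figure D4:**
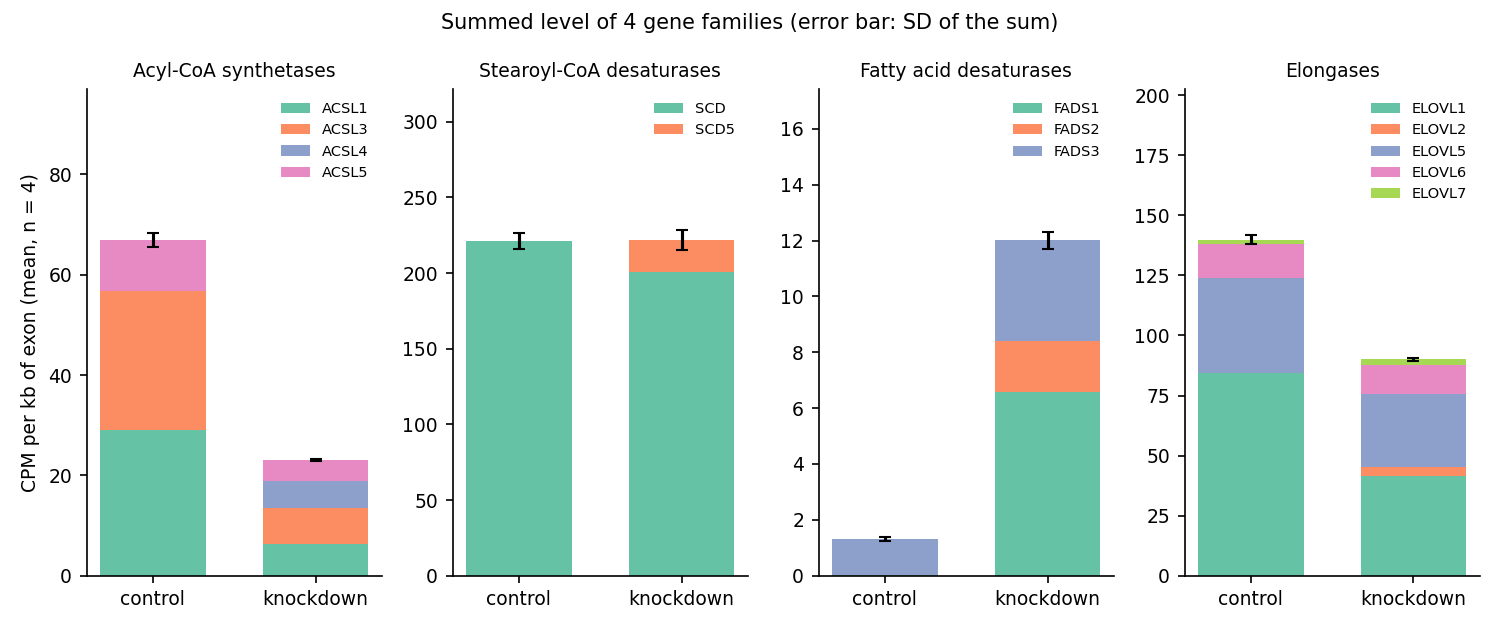
Summed level per kilobase of exon for 4 gene families in control and knockdown, stacked by gene, with bars for the SD of the sum over 4 libraries. The acyl-CoA synthetase sum falls from 66.9 to 23 and the FADS sum rises from 1.31 to 12, while the stearoyl-CoA desaturase sum stays at 221 to 222 with an added SCD5 band.

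Of the 4 uptake and binding genes, FABP3, FABP7 and CD36 were under 1 CPM in the mean of each group, and FABP5 was higher. FABP5, an intracellular fatty acid carrier, read 7.74, 9.22, 8.31 and 8.58 CPM in control and 45.1, 41.1, 40.1 and 42.1 CPM in knockdown replicates 1 to 4. It was 4.98-fold higher in knockdown, with no overlap (log2 fold change 2.315, SE 0.0635, edgeR adjusted p = 4.21e-21). FABP3, the heart-type carrier, had 6 to 14 counts in control and 18 to 23 in knockdown (log2 fold change 1.265, SE 0.268, edgeR adjusted p = 4.01e-04). CD36, a fatty acid translocase of the cell surface, had 1, 5, 4 and 3 counts in control and 19, 10, 16 and 14 counts in knockdown replicates 1 to 4 and was below the filter. FABP7 did not exceed 2 counts in any library.

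Of the 6 glycerolipid assembly genes, 2 were lower (33.3%, against 37.7% of all genes) and 3 were higher (50%, against 39.4%). The remaining gene did not pass the test, and DGAT2 alone moved by 2-fold or more. DGAT2, an acyltransferase of the last step to triglyceride, read 2.24, 1.32, 2.23 and 2.54 CPM in control and 4.46, 5.04, 5.04 and 6.29 CPM in knockdown replicates 1 to 4. The knockdown values were all higher, at low levels (log2 fold change 1.32, SE 0.233, edgeR adjusted p = 1.06e-07). DGAT1, the other enzyme of that step, went from 42.1 ± 3.73 to 35.8 ± 1.06 CPM (log2 fold change -0.23, SE 0.0669, edgeR adjusted p = 5.55e-04), and the 2 DGAT genes summed to 10.5 ± 0.939 and 9.33 ± 0.186 CPM per kb, which overlap. LPIN1, a phosphatidate phosphatase, rose from 53.8 ± 1.25 to 91.1 ± 4.36 CPM (log2 fold change 0.76, SE 0.0385, edgeR adjusted p = 1.99e-14). GPAM, the mitochondrial glycerol-3-phosphate acyltransferase, rose by 0.38 (log2, edgeR adjusted p = 2.78e-07). LPIN2 was lower, its log2 fold change being -0.18 (adjusted p = 0.00457), a call that ended with upper-quartile scaling (adjusted p = 0.0505) and with library size alone (0.102), within a range of 1.99e-08 to 1. AGPAT2, which makes phosphatidic acid, was at 60.6 ± 3.22 and 61.6 ± 2.79 CPM (adjusted p = 0.643).

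At the droplet, the coat gene PLIN2 was higher and both lipases were lower. PLIN2 read 13.7, 14.3, 16 and 14.5 CPM in control and 26.2, 26.5, 27.6 and 27.1 CPM in knockdown replicates 1 to 4. All knockdown libraries were above all controls (log2 fold change 0.88, SE 0.0496, edgeR adjusted p = 7.47e-13), while its 50 nearest genes had a median of -0.48. PLIN3, a more widely expressed coat protein, went from 64.1 ± 3.19 to 53.9 ± 1.26 CPM (log2 fold change -0.25, SE 0.0396, edgeR adjusted p = 1.88e-05) and was at 0.04 with its regional shift removed (adjusted p = 0.396, range 3.09e-07 to 1). The 2 coat genes summed to 25.6 ± 1.23 and 24.4 ± 0.528 CPM per kb, which overlap, with the PLIN2 share at 11.2 ± 0.62% and 21.6 ± 0.352%.

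PNPLA2, which encodes adipose triglyceride lipase, read 175, 160, 188 and 165 CPM in control and 48.9, 50, 49.9 and 52.1 CPM in knockdown replicates 1 to 4. It fell to 29.2% (log2 fold change -1.775, SE 0.056, edgeR adjusted p = 9.62e-21). LIPE, hormone-sensitive lipase, had 106, 104, 109 and 120 counts in control and 2, 0, 4 and 2 counts in knockdown replicates 1 to 4. It was 52.3-fold lower in mean CPM (log2 fold change -5.71, SE 0.74, edgeR adjusted p = 1.17e-15), with 0 to 4 counts per knockdown library, and without knockdown replicate 3, the highest of them, the log2 fold change was -6.30. Its antisense gene LIPE-AS1 shares 500 exonic bases and had a mean of 7.25 counts over all 8 libraries, against 55.88 for LIPE. By group, LIPE had a mean of 109.75 counts in control and 2 in knockdown, and the part of the overlap was not tested. The adipocyte markers went both ways at low counts. PLIN1 went from 44 to 61 counts in control to 3 to 8 in knockdown, and ADIPOQ had 17 to 33 counts in control and 1 in each knockdown library. LEP had at most 1 count in control and 9 to 17 in knockdown. CIDEC and LPL, at 0 in control, had 2 to 4 and 2 to 6 counts in knockdown, and PLIN4 had 3 to 8 counts in control and 5 to 8 in knockdown. The part of these markers in the results was not tested.

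Of the 10 oxidation genes, 8 fell (80%, against 37.7% of all genes), 1 rose and 1 did not pass the test. With the regional shift removed, 6 were lower and 2 higher. The 23 tested oxidation genes of the wider pathway list, described last, had 11 lower and 9 higher and a median log2 fold change of -0.10. HADHA and HADHB (chr2:26190635-26244726, minus strand, and chr2:26243170-26290468, plus strand) encode the alpha and beta subunits of the mitochondrial trifunctional protein and are transcribed away from a shared start region. HADHA read 297, 303, 310 and 307 CPM in control and 184, 174, 187 and 191 CPM in knockdown replicates 1 to 4. HADHB read 182, 179, 174 and 175 CPM in control and 104, 100, 101 and 108 CPM in knockdown replicates 1 to 4. Both fell by like amounts, to 60.4% and 58.1% of control, with log2 fold changes of -0.73 and -0.785 (edgeR adjusted p = 6.35e-16 and 3.08e-16). Of the nearest genes, GAREM2 was at 2.82 and ADGRF3 at -1.77, both at low levels (under 4 CPM in each group), and RAB10 and SELENOI were at -0.29 and 0.13. The 250 bases before the HADHA start (chr2:26244633-26244882 on the minus strand, 20 CpG, RefSeq, GRCh38.p14, CG in capitals) are shown because the HADHB window overlaps them on the other strand.
HADHA: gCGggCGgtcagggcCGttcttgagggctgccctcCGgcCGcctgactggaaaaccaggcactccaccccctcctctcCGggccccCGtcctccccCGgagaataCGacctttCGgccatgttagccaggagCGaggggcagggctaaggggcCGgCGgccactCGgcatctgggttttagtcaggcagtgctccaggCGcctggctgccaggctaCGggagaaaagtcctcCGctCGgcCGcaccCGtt

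CPT1A, the enzyme that commits fatty acids to mitochondrial entry, read 208, 218, 220 and 212 CPM in control and 173, 180, 174 and 185 CPM in knockdown replicates 1 to 4. The step was small and without overlap (log2 fold change -0.27, SE 0.0298, edgeR adjusted p = 1.52e-07), its nearest genes had a median of -0.44, and it was at 0.17 with that removed (adjusted p = 8.51e-05, range 4.38e-12 to 1). CPT1C, the brain-type form, went from 2.82 ± 0.469 to 0.81 ± 0.101 CPM (log2 fold change -1.795, SE 0.153, edgeR adjusted p = 5.15e-09), and CPT2, the inner-membrane enzyme, had a log2 fold change of -0.36 (adjusted p = 5.60e-07). ACADM, medium-chain acyl-CoA dehydrogenase, went from 105 ± 13.2 to 77.4 ± 4.44 CPM (log2 fold change -0.435, SE 0.106, edgeR adjusted p = 0.00379), and its control SD was wide, with replicate 3 low. Without that library its log2 fold change was -0.53 (adjusted p = 2.91e-12), and with the regional shift removed it was -0.18 (adjusted p = 0.136, range 2.91e-12 to 1). ACADM also shares 157 exonic bases with RABGGTB on the same strand. ACADVL, very long-chain acyl-CoA dehydrogenase, was at 231 ± 7.39 and 235 ± 6.58 CPM (adjusted p = 0.501).

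ACADSB, a dehydrogenase of short branched chains, was the only oxidation gene of the 10 that rose, and read 5.72, 4.77, 3.99 and 4.78 CPM in control and 14.5, 14, 14.8 and 13.1 CPM in knockdown replicates 1 to 4. It was 2.92-fold higher with no overlap (log2 fold change 1.545, SE 0.112, edgeR adjusted p = 8.42e-14). The 2 peroxisomal genes had the largest falls of the 10, ahead of CPT1C. EHHADH, the peroxisomal bifunctional enzyme, read 9.48, 7.9, 7.69 and 8.66 CPM in control and 1.36, 1.15, 1.83 and 1.25 CPM in knockdown replicates 1 to 4. It was 6.03-fold lower (log2 fold change -2.60, SE 0.161, edgeR adjusted p = 3.96e-15). ACOX2, the branched-chain acyl-CoA oxidase, had 54, 74, 78 and 86 counts in control and 1, 1, 0 and 1 counts in knockdown replicates 1 to 4. It was at least 21.7-fold lower (edgeR adjusted p = 1.11e-14).

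Other genes of the same pathways were taken from a separate list of 87, of which 83 were in the table and 73 were tested. Of these, 62 passed the test (84.9%, against 77.1% of all genes). Lower were 38 (52.1% of those tested, against 37.7% of all genes) and higher 24 (32.9%, against 39.4%). By size, 30.1% of those tested moved by 2-fold or more, near the 28.3% of all genes. Where the mean count reached 50, the largest falls included those of ACOT2, a mitochondrial acyl-CoA thioesterase (52 ± 0.766 to 0.384 ± 0.121 CPM, log2 fold change -7.03), its near copy ACOT1 (-2.27), the peroxisomal thiolase ACAA1 (391 ± 17.2 to 109 ± 1.32 CPM, -1.84) and the dienoyl-CoA reductase DECR1 (-1.78). ACOT1 and ACOT2 are so alike that reads may be shared between them, and their values are uncertain. Under the same limit, the largest rises were in ETFB, which passes electrons from acyl-CoA dehydrogenases (13.9 ± 0.647 to 93.1 ± 1.42 CPM, log2 fold change 2.74), the transporter SLC27A6 (8.24 ± 0.473 to 41.5 ± 0.973 CPM, 2.33), the nuclear receptor PPARA (7.73 ± 0.451 to 29.5 ± 2.07 CPM, 1.93), the acyltransferase GPAT3 (1.86) and PPARG (13.1 ± 0.663 to 27.3 ± 1.16 CPM, 1.06). The 50 genes nearest to SLC27A6 had a median of 1.12, and those nearest to ETFB a median of 0.684. For PPARA, GPAT3 and PPARG the medians were 0.198, 0.113 and -0.181. All 9 listed genes that control SREBP processing or act beside it passed the test, as did 77.1% of all genes. Of the 9, 7 were lower (77.8%, against 37.7% of all genes) and 2 higher (22.2%, against 39.4%). The steps were mostly small: 1 gene moved by 2-fold or more (11.1%, against 28.3% of all genes), and the median log2 fold change was -0.298.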

How the data were processed

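For each of 8 SKBR3 libraries the authors deposited counts by gene, not normalized. The submitters' processing notes name FastQC, Salmon 1.9, DESeq2 3.16 and hg38 with no role. How the counts were made, the use of strand and the annotation are not given in the sources used here. Groups came from sample titles, columns from their names. Paired-end reads came from mRNA libraries, per the labels' protocols.

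Genes were kept by filterByExpr (minimum 10 counts, total 15), scaled by TMM and tested with edgeR 4.0.16 in R 4.3.3 (glmQLFit with robust estimation, glmQLFTest, Benjamini-Hochberg over all genes tested, threshold 0.05). Standard errors come from replicate log2 CPM computed with 0.5 extra counts. For a group with at most 3 counts in all of its libraries, a fold is a bound against 3 counts per library, covering counting error only. Positions and exon lengths are from GENCODE 29 and matched 96.5% of genes. The genes described, the lists and the thresholds were chosen with earlier results of these data known. All listed genes are named. Values per library are given for genes past the threshold with a log2 fold change of at least 1 in size and a mean of at least 50 counts, for genes at the floor in one group with a mean of at least 50 counts in the other, and for 11 core enzymes and regulators. Of other pathway genes, the 5 largest rises and falls past the threshold and with a mean of at least 50 counts are named, except for a gene that is not reported here. On simulated counts of 15228 genes drawn from the control means, 98.8% of genes changed by 1 on the log2 scale and 100% of those changed by 2 were called, and 5.13% of calls were false. Only 82 and 104 changed genes were tested there, and all genes had a common dispersion. In the data 77.1% of genes passed, so these rates do not carry over to them. Alternatives were other scalings, filters and thresholds, DESeq2 1.42.0, limma voom 3.58.1, a replicate block, a test against a 2-fold change, a regional shift removed and each library left out.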

Additional observations from a re-analysis of the deposited data

Results flagged for a closer look

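In 47 genes and 2 groups of 4 libraries, 94 groups were examined for a library far from the others, by the gap between an end value and its neighbour as a share of the group's range. A gap above Dixon's critical value for 4 values was taken as far. Chance gives about 1 in 20 groups, or 4.7 of 94, and 8 were found. MLXIPL stood out in both groups: control replicate 4 was high, at 5.95 CPM against 5.31 to 5.36 (0.927 of the range), and knockdown replicate 3 was low, at 3.62 against 4.25 to 4.35 (0.865). Control replicate 3 was the far library for 3 genes. It was high for ACSS2, at 133 CPM against 124 to 125 (0.885), low for ACSL3, at 184 against 205 to 208 (0.867), and low for ACADM, at 84.9 against 109 to 113 (0.845). The other 3 rest on single counts. FABP7 was at 0.0431 CPM in control replicate 4 and 0 in the other controls (1 of the range), and at 0.102 CPM in knockdown replicate 3 against 0.041 to 0.0463 (0.913). ACOX2 was at 0 in knockdown replicate 3 against 0.041 to 0.0463 CPM (0.885).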

How the results depend on the processing

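Over 20 alternatives, 43 of the 45 tested genes were split between 27 lower and 16 higher with edgeR, DESeq2, limma voom, RLE scaling and an adjusted p of 0.01. Against a 2-fold change, 3863 genes passed in place of 12675, with 13 fatty acid genes lower and 10 higher, and 15 lower and 6 higher among the other pathway genes. With library size alone the split was 25 and 18, and with the median of the 50 nearest genes removed it was 22 and 18. That removal turned the direction of MLXIPL (0.059), ACLY (0.14), ACACA (-0.026), PLIN3 (0.042), CPT1A (0.17) and ACADVL (-0.016). AGPAT2, not called, ran from -0.008 to 0.052 with a library left out. AGPAT2 passed the test with library size alone (0.108, adjusted p = 0.0358) and with the regional shift removed (0.265), and ACADVL with upper-quartile scaling (0.085, adjusted p = 0.0336) and library size alone (0.11, adjusted p = 0.0041). Leaving out each library gave 12498 to 12865 genes called and, of the fatty acid genes, 27 lower and 16 to 17 higher. Deviations of same-numbered libraries correlated at 0.088, 0.168, -0.035 and 0.066 over 12420 genes. Differently numbered pairs of control and knockdown ran from -0.119 to 0.074. Whether replicate numbers pair the libraries was not tested. With a replicate block 12453 genes passed and the split stayed 27 and 16. Depth limits the folds of genes with under 10 counts in a group, such as FADS1, whose log2 fold change ran from 8 to 8.74 with a library left out.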

Other observations

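SLC25A20, the carrier that exchanges acylcarnitine for carnitine across the inner mitochondrial membrane, was listed at 0 counts in every control library and at 3.37 ± 0.386 CPM in knockdown. BSCL2, the seipin gene of droplet formation, fell from 8.24 ± 0.73 to 2.92 ± 0.739 CPM (log2 fold change -1.51, edgeR adjusted p = 2.07e-10). INSIG1, which holds SREBP in the endoplasmic reticulum and is itself an SREBP target, rose from 47.4 ± 1.47 to 75.3 ± 2.83 CPM (0.67, adjusted p = 3.69e-13), while INSIG2 fell from 19.8 ± 2.11 to 11 ± 0.455 CPM (-0.85, adjusted p = 1.71e-10). These genes were chosen from the wider pathway list after their values were seen.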
